A study of Danio rerio with 6 samples.

Results

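The 9 genes described here, *cpt1aa*, *cpt1ab*, *cpt1b*, *cpt2*, *acadvl*, *acadm*, *hadhaa*, *hadhab* and *hadhb*, encode the core of mitochondrial fatty acid oxidation in zebrafish and were chosen by name among the 32520 genes of the expression table. A total of 8 were found by their symbol. The other, *cpt1ab*, was listed only by its identifier, ENSDARG00000062054, which the gene name table pairs with that symbol. All 9 passed the filter on low counts, which left 22762 genes for testing. Enzymes of peroxisomal oxidation are not among the 9 and are described as a separate list.

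RNA sequencing was carried out on 6 libraries from embryos at 3 days post fertilization (dpf), in a search for transcripts that change when Dgat2, an enzyme that makes triacylglycerol, is mutated. The mutants were homozygous for *dgat2*sa13945, a nonsense allele from a chemical mutagenesis screen, and were picked by their opaque yolk from in-crosses of heterozygous parents, with the genotype read from the removed heads and tails. Their wild-type clutchmates had normal yolks. The study proposes that *dgat2*sa13945 may not be a full null allele. Each library held the mid-sections of 6 embryos, and 1 mutant and 1 wild-type pool came from each of clutches 2, 3 and 4, so there were 3 pools per genotype. Heads and tails were cut away to enrich for the yolk syncytial layer (YSL), the layer at the yolk surface that packages yolk lipid into lipoproteins, but the pieces still held the back muscle and other tissue around the yolk. In such bulk samples fewer cells of a type and less RNA per cell cannot be told apart. No treatment was applied, and the *dgat2* transcript itself was still present in mutants (12.7, 5.49 and 13.3 TPM, transcript abundance scaled for depth and transcript length, in clutches 2, 3 and 4, against 18.9, 9.53 and 2.54 in wild type), so its level does not check the labels.

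Long-chain fatty acids enter mitochondria as carnitine esters. Carnitine palmitoyltransferase 1, on the outer membrane, forms the ester and is blocked by malonyl-CoA, which makes it the control point of the pathway, and carnitine palmitoyltransferase 2, on the inner membrane, turns the ester back into acyl-CoA. Acyl-CoA dehydrogenases then carry out the opening step of each cycle, and the mitochondrial trifunctional protein, built of alpha and beta subunits, carries out the remaining steps for long chains. Striated muscle, heart, liver and kidney are known for high oxidation of fatty acids, whereas the YSL is known for exporting them.

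The libraries summed to 45958694 to 59166585 estimated counts, and each mutant library was deeper than each wild-type library. For fast skeletal muscle 20 of 20 marker genes were measured, and their summed level was 142989 to 162734 TPM in mutants and 151857 to 168571 TPM in wild type. The 10 measured markers of YSL lipoprotein output, several of which the liver also makes, summed to 16715 to 21238 and 12588 to 24168 TPM, and 11 hepatocyte markers to 2167 to 2729 and 1657 to 3048 TPM, so transcripts typical of the labelled YSL and musculature were both present, beside those of liver. No marker of these 3 lists was at 0 in any library. TPM values moved as a whole between the pools of a clutch: over 15889 well measured genes the median log2 difference, mutant minus wild type, was -0.17, -0.09 and 0.19 in clutches 2, 3 and 4 by TPM, but 0.02, -0.00 and -0.02 by CPM, counts scaled only for library depth with TMM factors. Log2 fold changes and log2 differences are therefore given from counts or CPM, except where TPM is named. TPM is used to compare levels between genes. Mutant and wild-type values printed in TPM carry these shifts.

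No core gene of fatty acid oxidation passed the test in *dgat2* mutants. Of the 9 genes, 0 had an adjusted p under 0.05 (quasi-likelihood test of edgeR, Benjamini-Hochberg adjusted over all tested genes), where 0.0132% of all tested genes did, and 0 had an unadjusted p under 0.05, where 5.20% did. The log2 fold changes ran from -0.43 for *cpt1b* to 0.08 for *cpt1aa*, with a median of -0.07 against -0.01 over all tested genes. Apart from *cpt1b*, every 95% interval lay between 0.690-fold and 1.22-fold, so larger changes of those 8 transcripts lay outside their intervals. With the clutch as a block, 0 of 9 passed at an adjusted p under 0.05, where 0.338% of tested genes did. At an unadjusted p under 0.05 there was 1, *cpt1b*, where 8.19% of tested genes passed in either direction and 3.05% passed as lower.

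**Figure D1:**
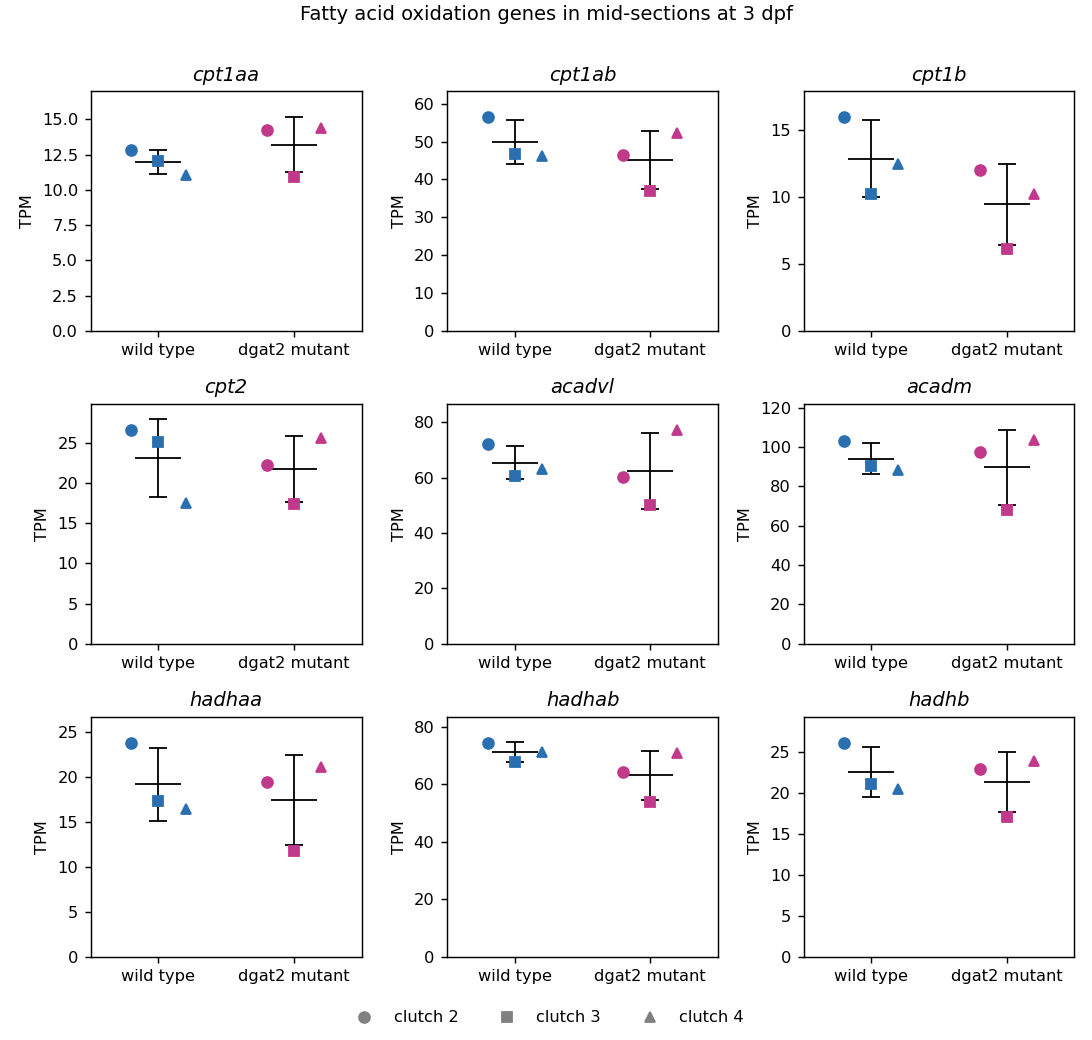
Level of each of the 9 fatty acid oxidation genes in TPM (y axis from 0, a separate scale in each panel) in wild-type and *dgat2* mutant mid-sections; points are pools, shaped by clutch, and bars are the mean ± SD of 3 pools. The mutant pool of clutch 3 was the lowest of the 6 libraries in every panel.

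By level, the 9 genes fell into a high and a low tier. In wild type *acadm* was the most abundant, at 88.4 to 103 TPM, above *hadhab* at 67.8 to 74.5 and *acadvl* at 60.7 to 72.0. The ranges of *hadhab* and *acadvl* overlapped, and both lay above *cpt1ab* at 46.3 to 56.5 TPM. The low tier began with *cpt2* at 17.6 to 26.7 TPM, whose range overlapped that of *hadhb* at 20.4 to 26.1, which in turn overlapped *hadhaa* at 16.4 to 23.7. Both *cpt1b*, at 10.2 to 15.9 TPM, and *cpt1aa*, at 11.1 to 12.8, lay below these, and their order differed between libraries, with *cpt1b* above *cpt1aa* in 2 of 6. All were well expressed for this tissue, with mean TPM from the 76.5th percentile of tested genes for *cpt1b* to the 96.4th for *acadm*. The place of *hadhb* leans on the transcript length used for TPM, since its counts per unit of TPM were 4.83 times those of *acadm*. By CPM, which takes no account of length, *hadhb* was at 170 to 188 in wild type, beside *acadm* at 151 to 157.

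Carnitine palmitoyltransferase 1 is encoded by several paralogs in zebrafish. *cpt1ab*, of the type known in mammals as the liver form, was at 46.4, 37.0 and 52.1 TPM in mutants of clutches 2, 3 and 4 and at 56.5, 46.8 and 46.3 TPM in wild type. The groups overlapped, and by CPM each mutant pool was below the wild-type pool of its clutch, by 0.11, 0.25 and 0.02 on the log2 scale. Its log2 fold change was -0.12 (SE 0.11, 95% interval -0.36 to 0.12, adjusted p = 0.9999 by edgeR), and -0.04 without the mutant pool of clutch 3.

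*cpt1aa* (ENSDARG00000059770), the other copy of the liver type, was the only one of the 9 with a higher estimate in mutants. It was at 14.2, 10.9 and 14.4 TPM in mutants and 12.8, 12.0 and 11.1 TPM in wild type. By CPM the values were 36.26, 36.27 and 38.17 in mutants and 35.72, 36.14 and 33.00 in wild type, so the groups did not overlap, but the gap was 36.26 against 36.14 CPM. The log2 fold change was 0.08 (SE 0.09, 95% interval -0.13 to 0.29, adjusted p = 0.9999 by edgeR), and the exact two-sided permutation test gave p = 0.1, the smallest that 3 pools against 3 allow.

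*cpt1b* (ENSDARG00000058285), of the type known in mammals as the muscle form, had the lowest estimate and varied most among the pools. It was at 12.0, 6.08 and 10.2 TPM in mutants of clutches 2, 3 and 4 and at 15.9, 10.2 and 12.4 TPM in wild type. The mutant pool was the lower of each clutch, by 0.23, 0.66 and 0.50 on the log2 CPM scale, yet the groups overlapped, because wild-type pools themselves ran from 32.9 to 46.1 CPM and mutant pools from 20.9 to 39.3. The fold change was 0.742 (95% interval 0.521 to 1.06), or -0.43 on the log2 scale (SE 0.22, adjusted p = 0.9999 by edgeR). With the clutch as a block the estimate was -0.46 (SE 0.11, 95% interval -0.72 to -0.20), with an edgeR unadjusted p of 0.003475 and an adjusted p of 0.204. The lowest adjusted p over all alternatives tried was 0.107, and without the mutant pool of clutch 3 the estimate was -0.23. Without the mutant pool of clutch 2 it was -0.67 and the unadjusted p was under 0.05.

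Markers of muscle were read beside *cpt1b*. Fast muscle markers had lower estimates in mutants for 18 of 20 genes (median log2 fold change -0.08). By edgeR 1 of the 20 had an unadjusted p under 0.05, where 5.20% of all tested genes did. Within clutches 2, 3 and 4 the median of these markers was 0.07, -0.01 and -0.28, where *cpt1b* was at -0.23, -0.66 and -0.50. Of the 9 slow muscle markers 2 had lower estimates, and their summed level was 953 to 1156 TPM in mutants and 969 to 1075 in wild type. Heart muscle markers had lower estimates for 8 of 8 (median -0.36), but were lowest in the mutant pool of clutch 2 (62.6 TPM summed, against 129 and 171 in the other mutant pools and 133 to 163 in wild type), where *cpt1b* was the highest of the mutant pools. By edgeR 0 of the 8 had an unadjusted p under 0.05. With the block 2 did, as lower, where 3.05% of tested genes did. No marker of these lists was at 0, and the part of tissue content in the *cpt1b* values was not tested.

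The mix of paralogs was led by *cpt1ab* in every library. It made up 66.8 ± 2.53% of the summed TPM of the 3 genes in mutants and 66.8 ± 0.898% in wild type (SD, n = 3 pools each). The share of *cpt1b* was 13.7 ± 2.66% in mutants and 17.1 ± 2.09% in wild type, with overlapping pools. That of *cpt1aa* was 19.6, 20.2 and 18.8% in mutants and 15.0, 17.4 and 15.9% in wild type, which did not overlap. When shares were taken from counts instead, *cpt1aa* had 13.7, 16.8 and 14.7% against 12.5, 14.1 and 12.2%, which did overlap. A further paralog, *cpt1a2b* (ENSDARG00000037943), which was named after its values were seen, was low, at 1.45 to 2.36 TPM in mutants and 1.68 to 2.43 in wild type.

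**Figure D2:**
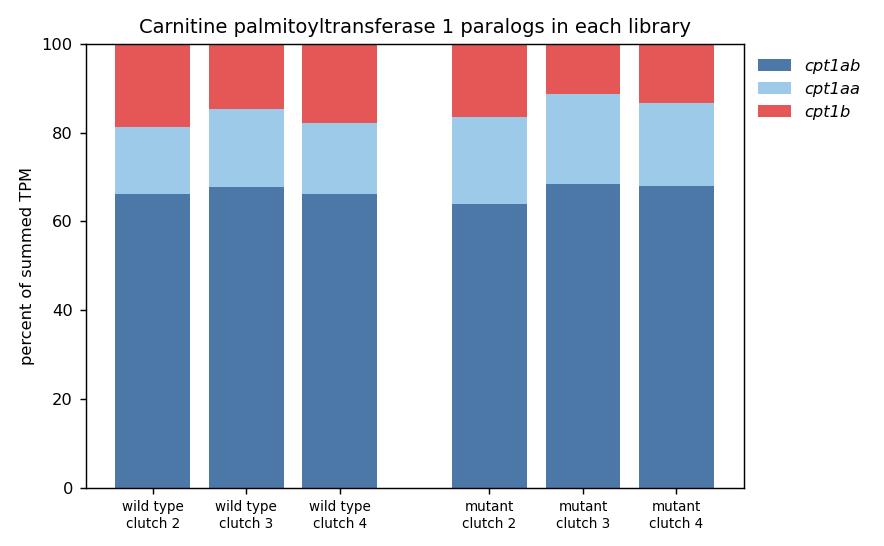
Share of the summed TPM of the carnitine palmitoyltransferase 1 genes *cpt1ab*, *cpt1aa* and *cpt1b* (percent, y axis) in each of the 6 libraries. *cpt1ab* made up 63.9 to 68.5% in every library, and *cpt1b* was least in the mutant pool of clutch 3, at 11.2%.

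*cpt2* (ENSDARG00000038618), the single gene for the inner membrane enzyme, was at 22.3, 17.5 and 25.7 TPM in mutants and 26.7, 25.2 and 17.6 TPM in wild type. Its direction turned between clutches, with log2 differences of -0.01, -0.31 and 0.25 in clutches 2, 3 and 4. The log2 fold change was -0.02 (SE 0.12, 95% interval -0.30 to 0.26, adjusted p = 0.9999 by edgeR).

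Among the acyl-CoA dehydrogenases, *acadm* was the steadiest of the 9 genes in wild type. *acadm* (ENSDARG00000038900), which acts on medium chains, was at 155, 151 and 157 CPM in wild-type pools, and at 163, 119 and 159 CPM in mutants. Only the mutant pool of clutch 3 fell outside a narrow band, and the log2 fold change was -0.07 (SE 0.13, 95% interval -0.36 to 0.23). *acadvl* (ENSDARG00000016687), which acts on very long chains, was at 220, 199 and 256 CPM in mutants and 226, 223 and 255 CPM in wild type. The clutches differed more than the genotypes: clutch 4 was the highest in both, and the differences within clutches were -0.04, -0.16 and 0.01, for a log2 fold change of -0.06 (SE 0.12, 95% interval -0.33 to 0.21). The adjusted p of both genes was 0.9999 by edgeR.

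The alpha subunit of the trifunctional protein, which carries the hydratase and dehydrogenase activities, has 2 genes in zebrafish. *hadhab* (ENSDARG00000060594) was the larger source, with 78.7 ± 2.99% of the summed TPM of the pair in mutants and 79.0 ± 2.84% in wild type (SD, n = 3 pools each). It was at 203, 178 and 202 CPM in mutants and 207, 212 and 235 CPM in wild type, so each mutant pool was below each wild-type pool. The differences within clutches were -0.03, -0.25 and -0.22 and the log2 fold change was -0.17 (SE 0.10, 95% interval -0.40 to 0.06, adjusted p = 0.9999 by edgeR), with an exact two-sided permutation p of 0.1, the smallest possible. Without the mutant pool of clutch 3 the estimate was -0.11.

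*hadhaa* (ENSDARG00000057128) was at 59.0, 37.3 and 57.6 CPM in mutants and 63.8, 52.0 and 51.9 CPM in wild type. The groups overlapped and the clutches disagreed, with log2 differences of -0.11, -0.48 and 0.15 and a log2 fold change of -0.12 (SE 0.18, 95% interval -0.54 to 0.29). *hadhb* (ENSDARG00000102055), the beta subunit with the thiolase activity, was at 187, 146 and 175 CPM in mutants and 188, 170 and 174 CPM in wild type. In clutches 2 and 4 the mutant and wild-type pools were almost level, at -0.01 and 0.01, and in clutch 3 the mutant was lower by 0.22, for a log2 fold change of -0.07 (SE 0.11, 95% interval -0.33 to 0.19). The adjusted p of both was 0.9999 by edgeR. The 2 genes lie next to each other in the RefSeq annotation of GRCz12tu, with *hadhab* elsewhere, and over the 6 libraries *hadhaa* and *hadhb* followed each other (Pearson r of log2 CPM 0.98) more than *hadhab* followed either (0.54 with *hadhaa* and 0.58 with *hadhb*). A high r was not particular to these neighbours. With *hadhaa* and *hadhb*, *cpt1ab* had r of 0.94 and 0.92 and *acadm* 0.92 and 0.93, though both lie elsewhere, and *cpt1aa* had 0.07 and -0.06. These r values are a description over 6 libraries that share clutches. The ratio of alpha to beta transcripts was 3.79 ± 0.107 in mutants and 4.04 ± 0.265 in wild type by TPM, and 1.45 and 1.55 by counts.

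**Figure D3:**
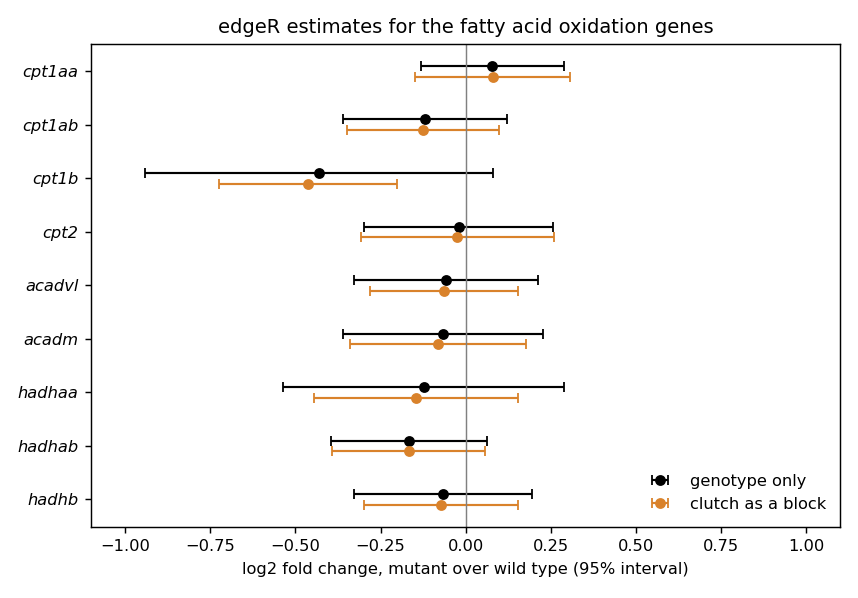
Log2 fold change, mutant over wild type, with its 95% interval for each of the 9 genes, from edgeR on genotype only (black) and with the clutch as a block (orange), n = 3 pools per genotype. The intervals on genotype only all cross 0; with the block that of *cpt1b*, at -0.46, does not.

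As a group, 8 of the 9 genes had a lower estimate in mutants, where 51.8% of all tested genes did. That count rested on 1 library: without the mutant pool of clutch 3 only 3 genes were lower, 6 were higher and the median log2 fold change was 0.03. The 5 genes that turned were *cpt2*, *acadvl*, *acadm*, *hadhaa* and *hadhb*. With clutch 3 left out whole, 5 genes were lower. The mutant pool of clutch 3 was the lowest of the 6 libraries by TPM for 9 of 9, where this held for 26.6% of tested genes, and by CPM for 8 of 9, with *cpt1aa* the exception, where it held for 15.9%.

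Within clutches the picture differed from one to the next. In clutch 2 the mutant pool was lower for 7 of 9 genes, but by little, with a median log2 difference of -0.03. In clutch 3 it was lower for 8 of 9, with a median of -0.25, and in clutch 4 for 3 of 9, with a median of 0.01. Over all tested genes these medians were 0.00, -0.00 and -0.01. The mutant was the lower pool of all 3 clutches for *cpt1ab*, *cpt1b* and *hadhab*, 3 of 9, where 14.3% of tested genes had that pattern. The groups did not overlap in CPM for 2 of 9, *cpt1aa* and *hadhab*, where 9.79% of tested genes did not, and for these genes the direction was opposite.

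**Figure D4:**
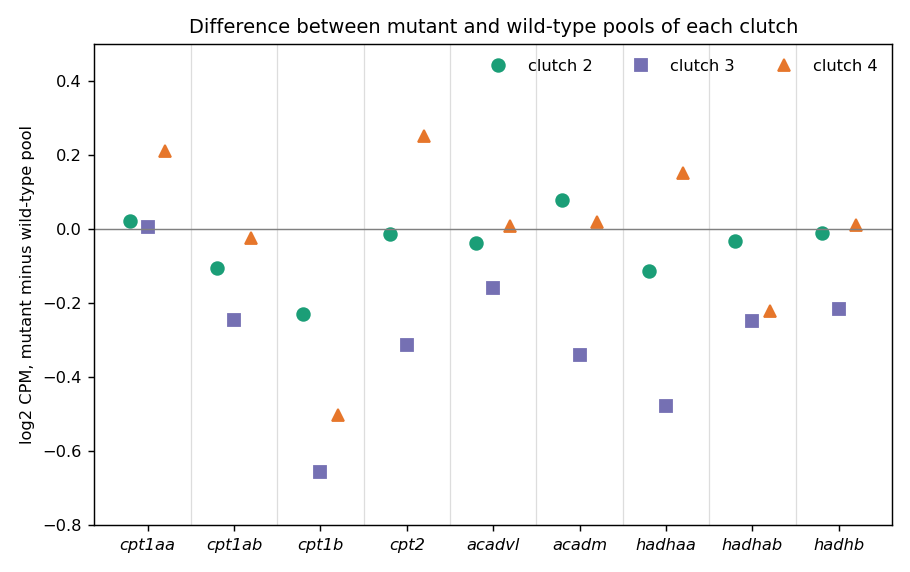
Difference in log2 CPM between the mutant and the wild-type pool of clutches 2, 3 and 4 (symbols) for each of the 9 genes; the line marks no difference. In clutch 3 the mutant pool was lower for 8 of 9 genes, and *cpt1b*, *cpt1ab* and *hadhab* were below the line in every clutch.

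Other mitochondrial genes were read in the same library. Nuclear-encoded genes of oxidative phosphorylation were matched by symbol prefix. The list held subunits of the respiratory chain, which takes up the electrons from fatty acid oxidation, and of ATP synthase. Assembly factors and ATP synthase inhibitors were matched too. Of the 108 tested genes of this list, 82 were lowest in the mutant pool of clutch 3 by TPM and 49 by CPM. Their median log2 fold change was 0.01, with 63 higher and 45 lower estimates. By edgeR 0 had an unadjusted p under 0.05, where 5.20% of all tested genes did. With the block 2 did, where 8.19% of tested genes did. For the electron acceptors and other acyl-CoA dehydrogenases the mutant pool of clutch 3 was lowest by CPM for 6 of 13. For the hydratases, thiolases and auxiliary enzymes it was lowest for 4 of 14, and for the carnitine list for 1 of 11. The malonyl-CoA, ketone body and regulator lists had 2 of 5, 2 of 7 and 5 of 15. For fast muscle markers that pool was lowest for 2 of 20. Outside mitochondria it was lowest by CPM for 9 of 21 peroxisomal genes and 5 of 9 pronephric tubule markers. For hepatocyte markers it was lowest for 0 of 11 and for YSL lipoprotein markers for 0 of 10, where 15.9% of tested genes had that pattern. What sets that pool apart for these genes was not tested.

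The genes most like *hadhb* across the 6 libraries were *acadl* (r 0.993), another acyl-CoA dehydrogenase, *uqcrc2b* (0.991), a subunit of respiratory complex III, and *coq10b* (0.990), a coenzyme Q binding protein. Those most like *cpt1b* were *appl1* (0.994), *tanc1a* (0.986) and *BAZ2B* (0.986). These are the 3 highest r for each gene among 19069 genes with a mean CPM of at least 1, and the highest r of each of the 9 genes was at least 0.985, so such values carry little over 6 libraries.

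The wider pathway was read from 7 lists holding 94 symbols, of which 86 genes were tested. As for the core genes, 0 of 86 had an adjusted p under 0.05 by edgeR, with or without the block. A total of 7 (8.14%) had an unadjusted p under 0.05, 5 higher and 2 lower, against 5.20% of all tested genes, and with the clutch as a block 12 (14.0%) did, 9 higher and 3 lower, against 8.19%. Without the mutant pool of clutch 3 there were 13, without the mutant pool of clutch 2, the wild-type pool of clutch 3 or both pools of clutch 3 there were 3, and without the mutant pool of clutch 4 there were 4. In direction, 60 had a higher and 26 a lower estimate, where 51.8% of all tested genes had a lower one. The median was 0.09 on the log2 scale, against -0.01 over all tested genes. The direction was not shared by the clutches. Medians of the 7 lists ran from -0.02 to 0.16 within clutch 2 and from 0.07 to 0.31 within clutch 4. Within clutch 3 they ran from -0.13 to 0.05, and only the ketone body and regulator lists were above 0. On genotype only, the 7 with an unadjusted p under 0.05 by edgeR were *gcdha*, *ivd*, *acat1*, *oxct1a*, *oxct1b*, *hmgcs1* and *acat2*. Of these, *gcdha* and *ivd* act on amino acid breakdown products, and *hmgcs1* and *acat2* work in cholesterol synthesis. The carnitine, malonyl-CoA, peroxisomal and regulator lists held 0 of the 7.

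**Figure D5:**
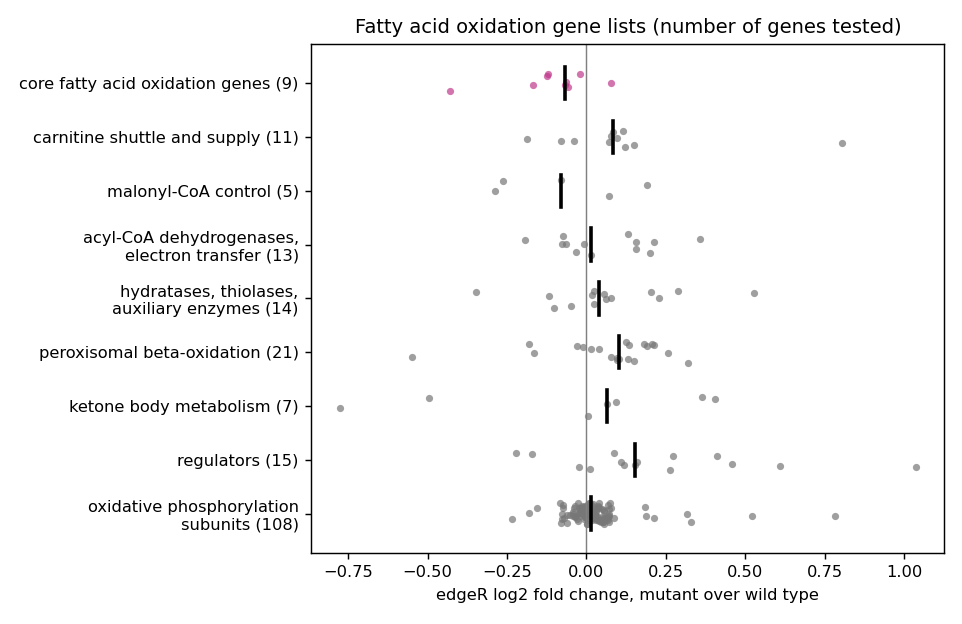
EdgeR log2 fold change, mutant over wild type (x axis), of each tested gene of the core list, of 7 other fatty acid oxidation lists and of the oxidative phosphorylation list. That last list, labelled as subunits, also holds assembly factors and ATP synthase inhibitors. Dots are genes, black bars are medians and the number of tested genes is in brackets. The core genes had a median of -0.07, the other lists -0.08 to 0.15.

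In the list drawn up for the carnitine shuttle and carnitine supply, 11 genes were tested, the median was 0.08 and none passed at an unadjusted p under 0.05 by edgeR. Under the block 1 did, *slc25a29* (ENSDARG00000057352), a mitochondrial carrier singled out after its values were seen, with a mean of 3.59 TPM in mutants and 2.40 in wild type (log2 fold change 0.80, adjusted p = 0.959, and 0.361 with the block). Whether *slc25a29* carries carnitine was not tested. A second entry of the same symbol, ENSDARG00000098849, was at 3.32 TPM in mutants and 3.24 in wild type (0.07, edgeR adjusted p = 0.9999, and 0.973 with the block). The most abundant, *aldh9a1a.1*, an aldehyde dehydrogenase of carnitine synthesis, was at 205 ± 29.6 TPM in mutants and 195 ± 37.5 in wild type. The 5 tested genes of malonyl-CoA control, which set the brake on carnitine palmitoyltransferase 1, had a median of -0.08, and 0 had an unadjusted p under 0.05 by edgeR with or without the block. Of these *prkaa1*, a catalytic subunit of AMP-activated kinase, was at 13.4 ± 0.713 and 14.3 ± 0.703 TPM, with a log2 fold change of -0.08.

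The 13 other acyl-CoA dehydrogenases and electron acceptors had a median of 0.01. *etfb*, a subunit of the flavoprotein that takes electrons from these enzymes, was at 131 ± 21.3 TPM in mutants and 131 ± 7.69 in wild type. The 2 with an unadjusted p under 0.05 act on amino acid breakdown products and not on fatty acids: *gcdha*, glutaryl-CoA dehydrogenase, was at 35.8 ± 5.56 against 27.1 ± 2.57 TPM (log2 fold change 0.36, SE 0.13, adjusted p = 0.893 by edgeR), and *ivd*, isovaleryl-CoA dehydrogenase, at 35.9 ± 1.83 against 31.3 ± 1.26 TPM (0.21, SE 0.09, adjusted p = 0.951). With the block *gcdha* alone of the list had an unadjusted p under 0.05, and that of *ivd* was 0.0619 by edgeR.

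The 14 hydratases, dehydrogenases, thiolases and auxiliary enzymes had a median of 0.04. *acaa2*, a mitochondrial thiolase, was level at 84.1 ± 10.9 TPM in mutants and 84.7 ± 17.4 in wild type. *acat1*, which splits acetoacetyl-CoA, was at 22.3 ± 3.42 and 18.4 ± 2.51 TPM, with an estimate of 0.29 (SE 0.10, adjusted p = 0.874 by edgeR). Under the block *acat1*, as higher, and *acot13*, an acyl-CoA thioesterase singled out after its values were seen, as lower, had an unadjusted p under 0.05. Of 21 peroxisomal genes 16 had higher estimates, with a median of 0.10. Within clutches 2, 3 and 4 the medians of these genes were 0.16, -0.02 and 0.26. On genotype only 0 had an unadjusted p under 0.05 by edgeR. With the block 2 did, where 8.19% of tested genes did. *scp2a*, a peroxisomal thiolase and sterol carrier, was at 68.5 ± 14.4 and 60.2 ± 8.61 TPM, with an estimate of 0.21 that was 0.05 without the mutant pool of clutch 2.

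Ketone body metabolism held the smallest p-values of the 7 lists. The genes *oxct1a* and *oxct1b*, for the enzyme that lets tissues use ketone bodies, had higher estimates. *oxct1a* was at 30.9, 32.8 and 31.2 TPM in mutants of clutches 2, 3 and 4 and at 25.3, 26.9 and 28.0 TPM in wild type. Its groups did not overlap by TPM or by CPM, at a log2 fold change of 0.36 (SE 0.09, edgeR unadjusted p = 0.00263, adjusted p = 0.432). *oxct1b* was at 43.0 ± 5.58 and 33.2 ± 9.83 TPM (0.41, SE 0.16, adjusted p = 0.935), and its estimate was 0.25 without the wild-type pool of clutch 4. The genes with lower estimates, *hmgcs1* and *acat2*, encode cytosolic enzymes that work in cholesterol synthesis. *acat2* was at 11.3, 9.15 and 11.6 TPM in mutants and 15.1, 16.7 and 13.7 TPM in wild type, without overlap by TPM or by CPM (-0.50, SE 0.12, edgeR unadjusted p = 0.00242, adjusted p = 0.428). *hmgcs1* was at 27.7 ± 9.97 TPM in mutants and 49.8 ± 13.5 in wild type (-0.78, SE 0.23, adjusted p = 0.739), and its estimate was -0.42 without clutch 3. None of the 4 passed the adjusted threshold, with or without the block.

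Receptors and coactivators that drive oxidation genes were read last. *pparaa*, a receptor that fatty acids activate, was at 2.37, 1.48 and 2.13 TPM in mutants and 2.01, 1.51 and 1.08 TPM in wild type, with a log2 fold change of 0.41 (SE 0.24, adjusted p = 0.9999 by edgeR). Its copy *pparab* was at 0.825 ± 0.221 and 0.765 ± 0.417 TPM. The coactivator gene *PPARGC1A* was at 3.92 ± 1.35 and 3.74 ± 1.24 TPM, and *ppargc1b* at 10.9 ± 1.83 and 10.8 ± 0.927 TPM. *lpin1a*, a lipin with a known role as a coactivator in mammals and the most abundant gene of the list, was at 25.3 ± 9.61 TPM in mutants and 18.7 ± 3.93 in wild type (0.46, SE 0.27, adjusted p = 0.9999), and without the mutant pool of clutch 2 the estimate was 0.10. For *pparaa* it was 0.25 without the mutant pool of clutch 2 or the wild-type pool of clutch 4. Over the 15 regulators tested the median was 0.15 and 0 had an unadjusted p under 0.05 by edgeR. Under the block 2 did, as higher, where 8.19% of tested genes passed in either direction.

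Markers of the gut lining and the exocrine pancreas, which also lie in the mid-section, had higher estimates in mutants for 5 of 5 and 12 of 12 genes. The intestinal markers summed to 375 to 1064 TPM in mutants and 345 to 531 in wild type, the acinar markers to 241 to 1787 and 224 to 1335 TPM. On genotype only, edgeR gave an unadjusted p under 0.05 for 1 of the 5 and 0 of the 12, where 5.20% of all tested genes had one. Under the clutch block it did for 5 of the 5 and 10 of the 12, where 8.19% of tested genes did. There 1 gene of each list passed at an adjusted p under 0.05, where 0.338% of tested genes did. Hepatocyte markers had higher estimates for 9 of 11 genes (median 0.20), with 1 at an unadjusted p under 0.05 by edgeR and 4 under the block. Their medians within clutches 2, 3 and 4 were 0.11, -0.04 and 0.75. Epidermal markers had lower estimates for 5 of 6 (median -0.28), with 2 at an unadjusted p under 0.05 by edgeR and 4 under the block, and summed to 5698 to 5920 TPM in mutants and 6302 to 7625 in wild type. YSL lipoprotein markers had higher estimates for 6 of 10 (median 0.09), with 2 at an unadjusted p under 0.05 by edgeR. Under the block 3 did, and 1 passed at an adjusted p under 0.05. The median of the YSL markers was -0.03 without the mutant pool of clutch 3. Erythroid markers were higher for 10 of 10 (median 0.15) and neural and eye markers lower for 6 of 6 (median -0.20), with 0 at an unadjusted p under 0.05 by edgeR in either fit. The erythroid direction rested on 1 library, as the median was -0.14 without the mutant pool of clutch 3. Within clutches 2, 3 and 4 the erythroid medians were 0.05, 0.41 and -0.16, and those of neural and eye markers -0.23, 0.12 and -0.55. Pronephric markers were higher for 6 of 9 (median 0.06), with medians of 0.10, -0.11 and 0.20 within clutches 2, 3 and 4. The part of these cell types in the values of the wider pathway, or of the 9 core genes, was not tested.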

How the data were processed

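Poly(A) RNA of 6 pools was sequenced. After adapter trimming and removal of ribosomal sequence, the authors aligned reads to GRCz11 with STAR 2.7.9a, quantified genes with Salmon 1.10.1 and tested with DESeq2 1.42. They deposited estimated counts per gene, not scaled for depth, and TPM, scaled for depth and transcript length. Salmon can divide reads between paralogs, but the counts of the 9 genes were whole within 0.01 in at least 5 of 6 libraries.

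Here estimated counts were rounded and tested with edgeR 4.0.16 (TMM, filterByExpr, quasi-likelihood, genotype only) in R 4.3.3. A gene passed at an adjusted p under 0.05 over 22762 genes. CPM are TMM-scaled, with a prior count of 0.5 on the log2 scale. Exact two-sided permutation tests of 3 pools against 3 cannot go under p = 0.1. Pools, not embryos, are the replicates, so p-values set the genotype difference against the variation between pools of 3 clutches. In the fit on genotype only, that variation includes differences between clutches. The study pooled mutants and wild type from each clutch, so the clutch was also fitted as a block. Pools of the same clutch had r across genes of 0.326, 0.277 and 0.169, against -0.271 to 0.0271 for other pairs. Each genotype was centred on its own mean first, so positive same-clutch values by themselves push other pairs below 0.

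Alternatives were DESeq2 1.42.0 with and without length offsets and block, other normalizations and filters, limma 3.58.1 on log2 TPM with pseudocounts of 1 and 0.1, and leaving out each library or clutch. The edgeR test was tested on simulated data. The members and lists were chosen with earlier results of these data known. Named from the 7 lists are genes with an unadjusted p under 0.05, the most abundant of each list and 4 PPAR regulators. Symbols were matched ignoring letter case. GRCz12tu was used only for neighbouring genes.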

Additional observations from a re-analysis of the deposited data

How the results depend on the processing

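No alternative gave an adjusted p under 0.05 for any of the 9 core genes or the 86 others. The edgeR count of 9 at an unadjusted p under 0.05 was 0 and became 1 (*cpt1b*) with the clutch as a replicate block and also 1 in DESeq2 with length offsets and the block, and 0 to 1 leaving out a library or clutch. For the 86 others it was 7, became 12 with the block and 4 in limma with either pseudocount, and ran from 3 to 13 leaving out a library or clutch. Over all tested genes the adjusted count of 3 became 77 with the block, 160 in DESeq2, 171 with length offsets, 359 with offsets and the block, 9 with no filter, 6 in limma on log2(TPM + 0.1), and 0 to 4 leaving out a library or clutch; the unadjusted count of 1183 became 1864 with the block, 657 in limma on log2(TPM + 1) and 651 on log2(TPM + 0.1). The cause was not tested. The block changed no other call of a core gene.

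Leaving out a library or clutch, 3 to 8 of the 9 had lower estimates, and log2 fold changes that turned ran from -0.16 to 0.12 for *cpt2*, -0.16 to 0.0225 for *acadvl*, -0.15 to 0.0628 for *acadm*, -0.27 to 0.0608 for *hadhaa*, -0.14 to 0.0297 for *hadhb*, -0.0166 to 0.18 for *aldh9a1a.1*, -0.0795 to 0.10 for *etfb*, -0.0747 to 0.10 for *acaa2*, -0.0620 to 0.59 for *pparab*, -0.18 to 0.31 for *PPARGC1A* and -0.0752 to 0.11 for *ppargc1b*. *cpt1b* stayed negative, at -0.67 to -0.23. For *etfb* limma on TPM also turned the sign, to -0.0076 with a pseudocount of 1, with or without the filter, and -0.0078 with 0.1. Within clutches, log2(TPM + 1) moved the differences with the whole scale of TPM, for example to 0.28 for *acadvl* and 0.17 for *cpt1ab* in clutch 4.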
